A study of Mus musculus with 32 samples.

Results

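Pde4a, Pde4b, Pde4c and Pde4d are the 4 mouse genes of the cAMP-specific phosphodiesterase 4 family, and they were followed here as RNAs bound to chromatin. An interaction counted for a member when its RNA tag had been assigned to that gene's Ensembl identifier, and the members were 4 of the 17784 transcripts listed in 15 RADICL-seq libraries. RADICL-seq ligates an RNA to nearby DNA in fixed nuclei through a bridge adapter, so each interaction is a pair of short sequence tags, 1 from an RNA and 1 from the DNA beside it. The libraries came from mESCs of the R08 line of mouse embryonic stem cells and from Oli-neu, an immortalised line derived from mouse oligodendrocyte progenitor cells and called mOPC here. mESCs were crosslinked with 1% formaldehyde (1FA, 3 libraries) or 2% formaldehyde (2FA, 3 libraries). In ActD4 (2 libraries) they were first treated with 5 µg/ml actinomycin D, which blocks transcription by RNA polymerase II, for 4 h. In NPM, for non-protein mediated, 1% formaldehyde crosslinks were reversed with proteinase K before the RNA ligation, and there were 2 such libraries of mESCs and 2 of mOPCs beside 3 mOPC 1FA libraries. Each cell type was a single cell line, and no line carried an allele or transgene named in the labels. Pde4b was selected on its difference between mOPC 1FA and mESC 1FA in these same libraries, so the levels of the family in that comparison are a description without a test.

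PDE4 enzymes break down cyclic AMP, the second messenger made by adenylyl cyclases downstream of G protein-coupled receptors, and so end or confine signalling through protein kinase A, Epac and the transcription factor CREB. Each gene has many promoters, and the long and short isoforms that result differ in their regulatory N-terminal parts and in the anchoring proteins that hold them. In the oligodendrocyte lineage cyclic AMP is known to act on maturation, and PDE4 inhibitors such as rolipram are used to raise it.

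The files listed 1998951 to 2832717 interactions per library in the 1FA and 2FA groups, 1190366 and 1272653 in mOPC NPM, 434610 and 608994 in mESC NPM and 251802 and 418781 in mESC ActD4. A level below is a number of interactions, or CPM, that number scaled to a common library total. Only pairs of a transcript and a 25-kb DNA bin that had passed the authors' significance threshold were listed, and this call was made once for all libraries of a group: the adjusted p of a pair was identical in every library for 100% of pairs. A gene listed at 0 therefore had no pair above that threshold, which does not show that its RNA was absent. The labels of both lines were set against marker genes. All 12 stem cell markers were listed in mESC 1FA, at a summed 2377 to 2915 CPM, and 1 of 12 in mOPC 1FA, at 0.949 to 1.5. Of 12 oligodendrocyte lineage markers, 10 were listed in mOPC 1FA at a summed 4102 to 4332 CPM and 6 or 7 in mESC 1FA at 12.7 to 45.1. Olig2 (34 to 58 interactions per library in mOPC 1FA against 0 in mESC 1FA) and Sox10 (275 to 483 against 0 to 4) fitted the mOPC label, while Pdgfra, a defining receptor of oligodendrocyte progenitors, was at 3 to 8 in mOPC 1FA and 8 to 69 in mESC 1FA. Of 5 neuronal markers, 2 were listed in mOPC 1FA, at a summed 362 to 411 CPM against 31.5 to 63.5 in mESC 1FA, and their part in the results below was not tested.

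The 4 genes differed first in which cell line captured them. Pde4b, which lies on chromosome 4 from 102087543 to 102607259 (mm10, plus strand, 520 kb, ENSMUSG00000028525), was an mOPC transcript in these data. The 3 mOPC 1FA libraries held 4188, 4131 and 4273 of its interactions, and the mOPC NPM libraries 1934 and 1667. In mESCs it was listed at 0 in all 3 1FA and both ActD4 libraries, at 8, 9 and 22 interactions in 2FA and at 5 and 2 in NPM. Scaled to the library totals, Pde4b stood at 1997 ± 126 CPM in mOPC 1FA (SD, n = 3) and between 34th and 43rd of all transcripts listed in those libraries. No library of either mOPC group came near any mESC library, the highest of which held 11.5 CPM.

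Pde4d, on chromosome 13 from 108449948 to 109953461 (plus strand, 1504 kb, ENSMUSG00000021699), was captured in every library of both lines. mESC 1FA held 3526, 3215 and 4176 interactions, mESC 2FA 3363, 3085 and 4649, mOPC 1FA 1138, 1097 and 1114. The smaller NPM and ActD4 libraries held 411 and 579 (mESC NPM), 490 and 401 (mOPC NPM), and 275 and 158 (mESC ActD4). In CPM, the order of the groups was mESC 2FA (1621 ± 197, n = 3), mESC 1FA (1371 ± 89.5, n = 3), mESC NPM (948 ± 3.59, n = 2), mESC ActD4 (642 ± 20.6, n = 2), mOPC 1FA (531 ± 23.1, n = 3) and mOPC NPM (361 ± 34.0, n = 2). The library values of neighbouring groups in this order did not overlap. The gap between the highest 1FA library (1474 CPM) and the lowest 2FA library (1499) was smaller than the spread within either group, and these groups are not told apart by the test given below.

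Pde4a and Pde4c were captured at a far lower level. Pde4a, a 47.5-kb gene on chromosome 9 from 21165714 to 21213248 (plus strand, ENSMUSG00000032177), had 40, 45 and 35 interactions in mESC 1FA, 27, 32 and 46 in 2FA, 4 and 3 in ActD4 and 12 and 15 in mESC NPM. The mOPC 1FA libraries held 10, 8 and 13, and those of mOPC NPM 50 and 37. In CPM it was highest in mOPC NPM (35.2 ± 5.80, n = 2), followed by mESC NPM (26.1 ± 2.11, n = 2), and lowest in mOPC 1FA (4.94 ± 1.4, n = 3). The mESC 1FA and 2FA libraries overlapped, at 12.4 to 18.4 and 12 to 18.3 CPM.

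Pde4c, a 27.5-kb gene on chromosome 8 from 70723720 to 70751186 (plus strand, ENSMUSG00000031842), was the reverse of Pde4b in its cell line: 43, 23 and 22 interactions in mESC 1FA, 13, 18 and 12 in 2FA, 4 and 5 in ActD4, 7 and 14 in mESC NPM, and 0 in all 5 mOPC libraries. All 4 mESC groups overlapped in the CPM of Pde4c with at least 1 other mESC group. Many transcripts of its chromosome moved the same way in the same comparison. Of 565 chromosome 8 transcripts tested, 81.1% were lower in mOPC 1FA, with a median log2 difference of -1.4 against -0.20 over all transcripts, and of the 49 protein-coding genes tested within 1 Mb of Pde4c, 39 fell and 2 rose (83.7% called, beside 77.9% of all transcripts). Of the 39, 15 had no mOPC library at the low-count filter, so that they entered the test through mESC 1FA and had to differ. The part of this shift in the missing Pde4c was not tested.

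Because the members differ widely in length, their levels were also set per 100 kb of gene. On this scale of CPM per 100 kb, Pde4b in mOPC 1FA stood highest (384 ± 24.2), Pde4d reached 91.2 ± 5.96 in mESC 1FA and 35.3 ± 1.54 in mOPC 1FA, Pde4c 40.4 ± 16.1 and Pde4a 32.1 ± 6.41 in mESC 1FA, and Pde4a 10.4 ± 2.95 in mOPC 1FA (SD, n = 3 each). In mESC 1FA the values of Pde4a and Pde4c differed by less than their spread. The scale divides by the whole annotated span, although parts of the long genes held few RNA tags. Pde4b in mOPC 1FA held 0.66 tags per 10 kb and library in its first 167 kb and 119 in the other 353 kb. Pde4d in mESC 1FA held 0.56 in its first 810 kb, 50.8 in the next 181 kb and 52.2 in the last 512 kb. The scale therefore understates the captured parts of both genes, and the short genes were not compared with them on captured length. In bulk libraries a smaller number of cells that express a gene and less RNA per cell cannot be told apart.

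**Figure D1:**
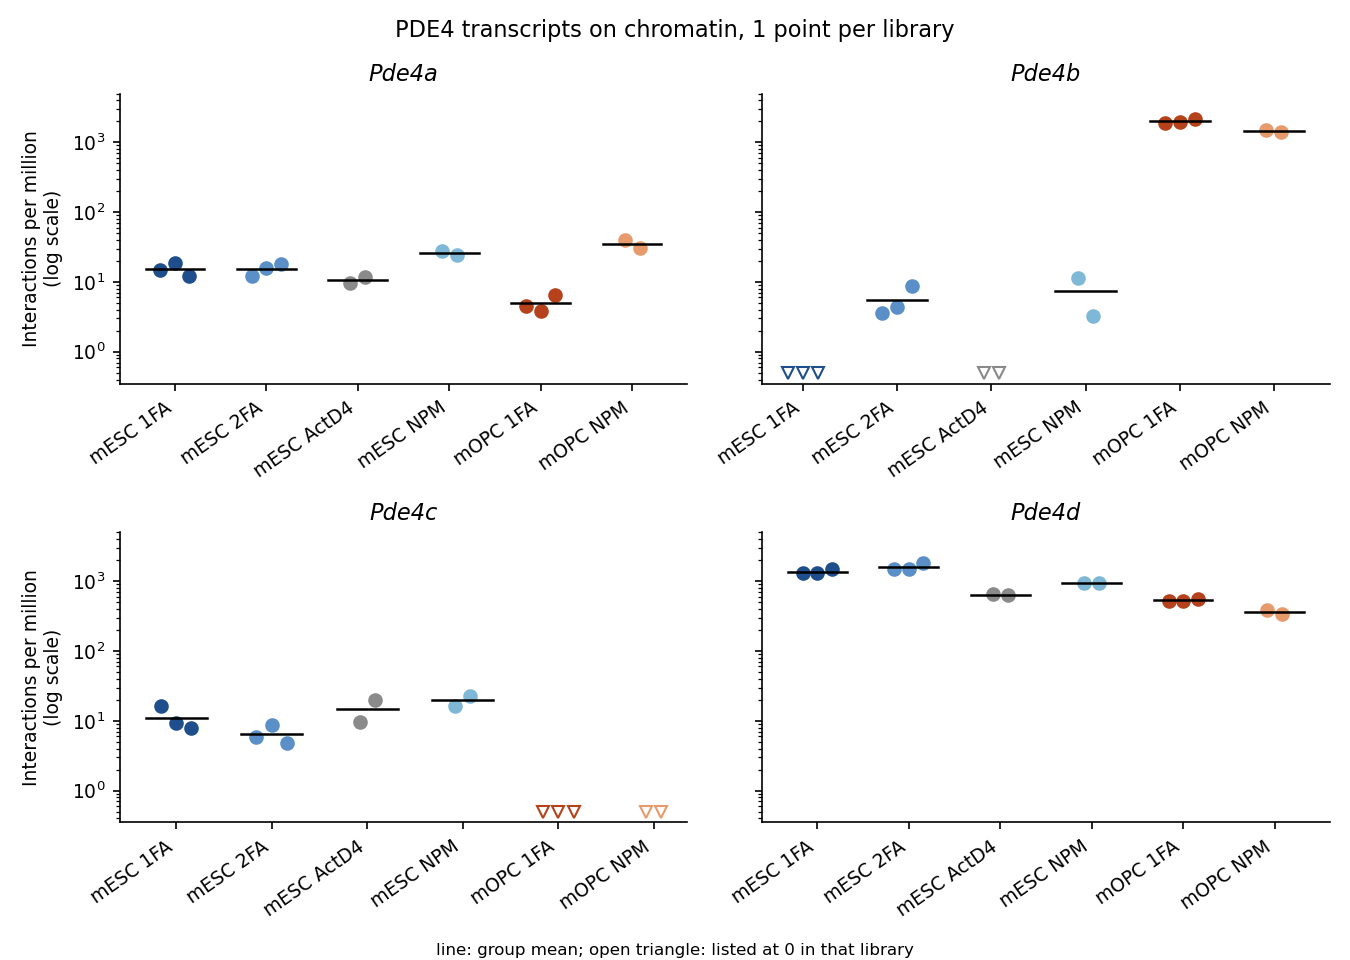
Level in each library, in CPM (log axis) for the 4 PDE4 genes in the 6 groups; each point is 1 library, the bar is the group mean, and an open triangle marks a library in which the gene was listed at 0. Pde4b stands at 1400 to 2138 CPM in the 5 mOPC libraries and below 12 in mESCs, whereas Pde4d is captured everywhere and Pde4c only in mESCs.

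The RNA tags showed which part of each gene had been captured. Nearly all were intronic for the long genes: 98.4 to 98.9% of Pde4b tags in mOPC 1FA and 97.5 to 98.1% of Pde4d tags in mESC 1FA. In the short genes introns held less of the signal, with 71.7% of 120 Pde4a tags and 72.7% of 88 Pde4c tags in mESC 1FA. Little of the signal of the 2 long genes lay near their annotated starts: the first 810 kb of Pde4d held 1.27% of its tags in mESC 1FA and 1.35% in mOPC 1FA. An edge of signal was taken as the first of 2 successive 250-bp windows with at least 5 tags each, a rule set after the profiles had been seen. Edges therefore fall on a 250-bp grid. Each was set against the closest of 18 annotated starts of Pde4b or 26 of Pde4d, with no finer resolution than the grid.

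Pde4b signal in mOPC 1FA began 167 kb inside the gene, at position 102254750. The 10 kb before this edge held 9 RNA tags and the 10 kb after it 807, over 3 libraries, and the edge lay 8 bp from an annotated start of the transcript Pde4b-206 (GENCODE M21). Only 0.262 ± 0.0832% of Pde4b tags came from the 167 kb before it (SD, n = 3). The 2 mOPC NPM libraries had the same step, with 5 and 138 tags on either side. From the edge the signal fell along the gene, from 569 tags per library in the 25 kb that start 175 kb into it to 106 at 375 kb, and stood at 258 at 425 kb.

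The 2 lines captured different lengths of Pde4d. In mESC 1FA the signal began 810 kb inside the gene, at 109260250, which is 404 bp before the annotated start of Pde4d-218. The 10 kb before this edge held 3 tags and the 10 kb after it 293. mOPC 1FA had 0 tags in both windows. Its own signal began 181 kb further on, at 109441000, with 3 tags before and 110 after, 99 bp from a start annotated in RefSeq, where mESC 1FA ran through with 136 and 147. The tags before this second edge made up 26.7, 28.1 and 25% of Pde4d interactions in mESC 1FA and 1.93, 1.91 and 1.62% in mOPC 1FA. The same split was found in the NPM libraries, which had not been used to place the edges, with 31.4 and 24% in mESCs and 1.84 and 1.25% in mOPCs. The groups did not overlap there (difference -26.2 percentage points, two-sided exact permutation test, p = 0.333, the smallest that 2 against 2 libraries allow; 0.333 after adjustment over 18 comparisons of shares and distances). mESC 2FA held 26.2 to 28.1% and mESC ActD4 16.4 and 18.4%.

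**Figure D2:**
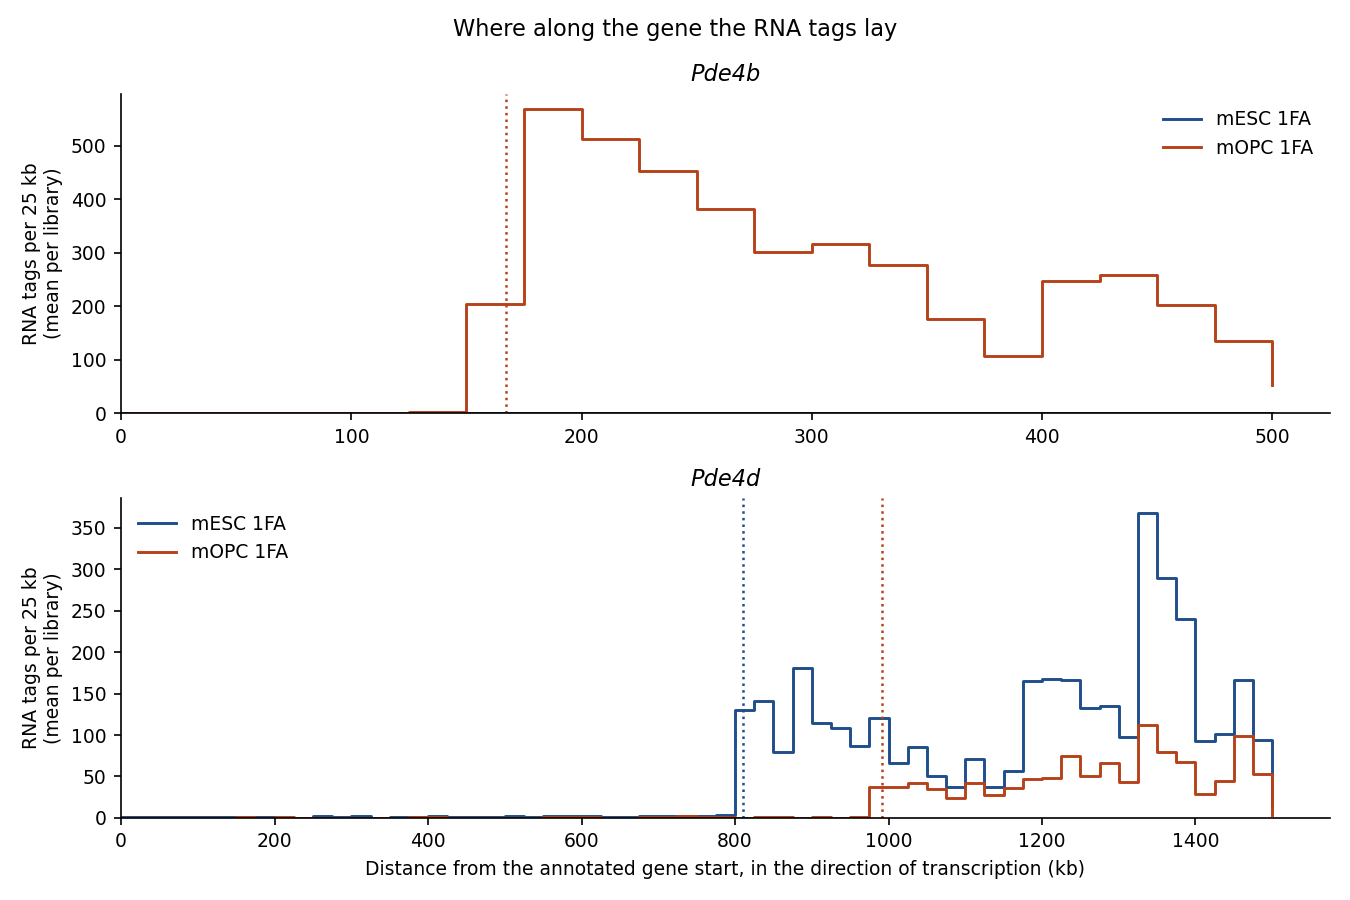
RNA tags per 25 kb (mean per library) along Pde4b and Pde4d, by distance in kb from the annotated gene start in the direction of transcription, in mESC 1FA and mOPC 1FA; dotted lines mark the edges of signal. Pde4b signal begins 167 kb into the gene in mOPC 1FA and is at 0 in mESC 1FA, and Pde4d begins 810 kb in for mESC 1FA but 991 kb in for mOPC 1FA.

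The bases just before the edges are shown because they separate the captured part of each gene from the part that was not, beside those of the first annotated coding start of Pde4b, where no signal began. Each line gives 250 bases on the plus strand of mm10, read from the RefSeq assembly GRCm38.p6, that end at the base before the annotated start, and capitals mark letters that match a searched motif on either strand. The motifs were the cAMP response element TGACGTCA, its shorter form TGACG, the GC box GGGCGG, the TATA box TATAAA and the CCAAT box CCAAT.
mOPC edge of Pde4b (chr4:102254492-102254741): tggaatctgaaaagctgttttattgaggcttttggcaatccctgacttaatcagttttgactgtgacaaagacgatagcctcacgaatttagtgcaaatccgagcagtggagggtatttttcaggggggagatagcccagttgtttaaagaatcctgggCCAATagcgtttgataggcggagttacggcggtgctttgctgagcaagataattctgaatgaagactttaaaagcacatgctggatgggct
mOPC edge of Pde4d (chr13:109440651-109440900): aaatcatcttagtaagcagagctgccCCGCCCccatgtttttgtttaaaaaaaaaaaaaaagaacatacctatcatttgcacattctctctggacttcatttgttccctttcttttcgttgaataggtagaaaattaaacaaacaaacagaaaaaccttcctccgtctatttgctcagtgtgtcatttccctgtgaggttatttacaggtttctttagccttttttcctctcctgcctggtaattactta
first coding start of Pde4b (chr4:102087082-102087331): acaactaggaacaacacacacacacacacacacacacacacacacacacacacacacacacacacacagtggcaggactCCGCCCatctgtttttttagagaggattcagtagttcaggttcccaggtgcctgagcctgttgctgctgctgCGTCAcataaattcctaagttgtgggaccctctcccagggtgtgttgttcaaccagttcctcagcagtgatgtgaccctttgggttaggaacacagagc

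The window before the mOPC edge of Pde4b held a CCAAT box 91 bases before the start, a motif found in 33.8% of 32851 promoter windows of the same length. The window before the mOPC edge of Pde4d held a GC box 224 bases before the start, found in 32.7% of promoters. The window before the first coding start of Pde4b held the shorter TGACG (17.8% of promoters) and a GC box. The full cAMP response element (1.55% of promoters) and the TATA box (12.4%) were in none of the 3 windows. These matches describe letters in the windows only. The 2 edges had fewer G and C bases, with 44.4% for Pde4b and 36.4% for Pde4d against a median of 52.4% over all promoters. The window before the first coding start of Pde4b was also below this median, at 50.8%.

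The listed contacts of Pde4b and Pde4d RNA lay almost wholly on their own chromosomes in the 1FA libraries but reached far along them. Those of Pde4a and Pde4c RNA lay close to their genes. The paper reports that the threshold of listing removed many interactions between chromosomes. With the few interactions of the short genes, fewer distant bins could pass this threshold, and the part of depth was not tested. Distance here is that between the RNA tag and the DNA tag. None of 120 Pde4a interactions in mESC 1FA and 31 in mOPC 1FA lay beyond 100 kb, while 12 of 105 (11.4%) in mESC 2FA did, all within 1 Mb. For Pde4c 7 of 88 (7.95%) lay between 100 kb and 1 Mb in mESC 1FA. Neither short gene had a contact beyond 1 Mb or on another chromosome in any group. Pde4b had 45.2, 48.4 and 49.1% of its interactions beyond 1 Mb in the 3 libraries, 6.78, 6.75 and 7.54% beyond 10 Mb, and its longest at 69.2 to 69.3 Mb. Its DNA tags spread over 476 bins of 25 kb on 3 chromosomes, of which 467 were hit in every library. The tags on chromosome 4 lay between 33.3 and 155 Mb, and 0.143 to 0.218% of interactions lay on other chromosomes. These bins were called on the 3 libraries together, which favours bins hit in every library. The gene itself took 38.9, 33.6 and 35.1%. Among 3114 transcripts with enough interactions for a share in mOPC 1FA, the 47.5% beyond 1 Mb ranked 35th against a median of 1.79%, while the share within the own gene ranked 1955th. By level Pde4b stood between 34th and 43rd in these libraries. The part of depth and of gene length in these ranks was not tested.

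Pde4d reached less far, and less far in mOPCs than in mESCs. In mESC 1FA 33.9, 33.0 and 34.1% of its interactions lay beyond 1 Mb, ranking 36th of 4266 transcripts (median 0.590%), and 53.0, 54.6 and 53.7% stayed within the gene. By level Pde4d stood between 57th and 63rd there, and the part of depth in this rank was not tested. In mOPC 1FA 25.1, 28.3 and 27.4% lay beyond 1 Mb, and 62.7, 58.8 and 60.1% within the gene. The longest contact was 27.7 to 28.2 Mb in mESC 1FA and 5.12 to 5.36 Mb in mOPC 1FA. The median distance was 434 ± 34.8 kb in mESC 1FA and 292 ± 26.9 kb in mOPC 1FA (SD, n = 3 each), without overlap of the libraries; these values come from the contrast on which the family was chosen and are a description, although their exact tests stand among the 18 comparisons adjusted together. mOPC 1FA also held fewer Pde4d interactions, 1116 against 3639 per library on average, so that fewer of its distant bins could pass the threshold of listing, and the part of depth in the difference was not tested. Of the 137 bins listed for Pde4d in mOPC 1FA, 135 were among the 281 listed in mESC 1FA, 98.5% of the former and 48.0% of the latter.

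Within the mOPC 1FA libraries, Pde4b exceeded Pde4d in the share beyond 1 Mb by 20.6 percentage points and in the median distance by 586 kb (878.6 ± 90.1 against 292 ± 26.9 kb, n = 3). Both differences had the same sign in 3 of 3 libraries (two-sided exact sign-flip permutation test, p = 0.25 each, the smallest that 3 pairs allow; 0.265 after adjustment over 18 comparisons). Pde4d is the longer gene, so contacts within its span can be longer than those within Pde4b. It also had 1116 interactions per library against 4197 for Pde4b, and the part of this depth in the difference was not tested.

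Contacts outside the gene were also laid out by side. Sides were taken from the annotated span, not from the edges of signal given above. Those edges lay 167 kb into Pde4b, and 810 kb (mESC 1FA) or 991 kb (mOPC 1FA) into Pde4d. DNA before the gene was thus farther from most RNA tags than DNA at the same listed distance after it. The part of this offset in the differences between the sides was not tested. For Pde4b, 3975 DNA tags lay before the gene and 4081 after it in mOPC 1FA, 46.9 to 50.8% before it per library. The 2 sides differed in the detail: between 0.1 and 0.3 Mb from the gene there were 0.279 ± 0.117% of interactions before it and 2.89 ± 0.263% after it, and beyond 10 Mb 5.56 ± 0.313% before and 1.46 ± 0.187% after (SD, n = 3). Pde4d leaned to the side after the gene, with 33.8 to 37.2% of outside tags before it in mESC 1FA and 32.5 to 36.3% in mOPC 1FA. Its 1 to 3 Mb class after the gene held 12.4 ± 0.524% of interactions in mESC 1FA and 10.3 ± 0.153% in mOPC 1FA, against 3.16 ± 0.255% and 0.806 ± 0.237% on the other side.

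**Figure D3:**
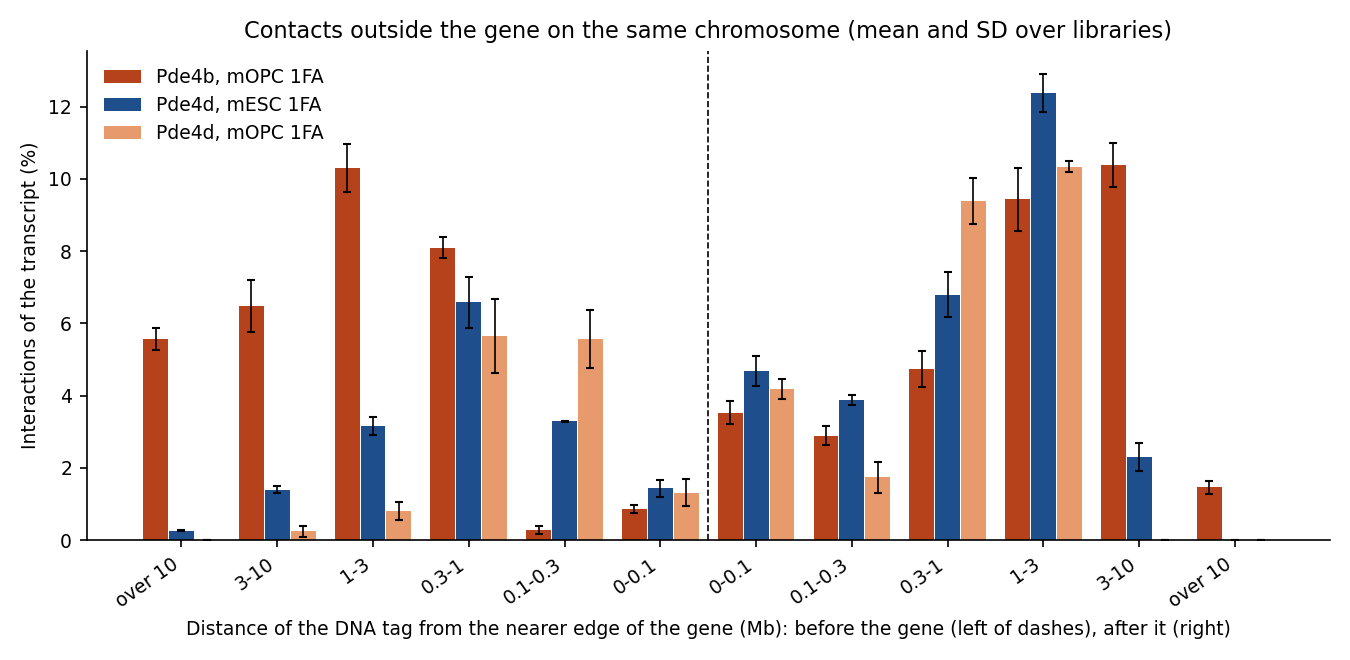
Share of a transcript's interactions (%) by distance in Mb of the DNA tag from the nearer edge of the gene, before the gene (left of the dashed line) and after it (right); bars are means and error bars SD over 3 libraries. Pde4b in mOPC 1FA has contacts beyond 10 Mb on both sides, and Pde4d has its largest class 1 to 3 Mb after the gene in both lines.

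Named genes at the DNA end showed where these contacts fell. The counts are not scaled to the length of the gene met, and the part of length was not tested. Dab1, for example, runs from 103619359 to 104744844 on chromosome 4 and Sgip1 from 102741297 to 102973628. Pde4b RNA in mOPC 1FA met Dab1, the Reelin adaptor gene whose span starts 1012 kb away, in 200, 223 and 212 interactions, 5.04% of all. It met the neighbouring endocytosis gene Sgip1, 134 kb away, in 126, 137 and 119. Dnajc6, which encodes auxilin, followed with 101, 83 and 90 at 445 kb, the receptor gene Ror1 with 71, 80 and 76 at 1643 kb, and the kinase gene Jak1 with 55, 65 and 65 at 822 kb. Pde4d RNA in mESC 1FA met the GTPase gene Rab3c, 101 kb away, in 154, 132 and 188 interactions, Depdc1b (42.2 kb) in 72, 63 and 72, Zswim6 (560 kb) in 40, 71 and 63, Ndufaf2 (291 kb) in 48, 39 and 52, and Elovl7 (164 kb) in 40, 41 and 41. In mOPC 1FA its leading partners were Depdc1b (19, 34 and 26), Ndufaf2 (23, 23 and 26), Rab3c (22, 32 and 17), Elovl7 (11, 22 and 14) and the DNA repair gene Ercc8 (16, 15 and 12). Rab3c took 4.34% of Pde4d interactions in mESC 1FA and 2.12% in mOPC 1FA, whereas Depdc1b took 1.90 and 2.36%. The low counts of the other members left few contacts to name: Pde4a RNA met the chaperone gene Cdc37, 15.7 kb away, in 3, 0 and 7 interactions in mESC 1FA.

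The DNA of the member genes was also met by RNAs of other genes. In mESC 1FA, where Pde4b RNA was listed at 0, the Pde4b gene held 427 DNA tags. These came from 4 RNAs, led by Dnajc6 (92, 64 and 83 interactions), Dab1 (58, 38 and 53) and Mier1 (9, 6 and 7), genes of the same chromosome, with Ak4 at 17 in all. In mOPC 1FA its 5475 tags were 82.4% from Pde4b itself, followed by Sgip1 (194, 186 and 198), the abundant nuclear noncoding RNA Malat1 (103, 97 and 94) and Mier1 (16, 17 and 19). Dnajc6 RNA, the main visitor in mESC 1FA, was itself listed at 0 in mOPC 1FA, and Sgip1 RNA at 3 to 7 interactions in mESC 1FA. The Pde4d gene held 7599 tags in mESC 1FA, 77.2% from its own RNA and the rest led by Arl15 (242, 198 and 275), Depdc1b (165, 119 and 217) and Ndufaf2 (69, 42 and 55). In mOPC 1FA it held 2263, of which 89.6% were its own, with Zswim6 (71, 81 and 74) and Arl15 (5, 0 and 4) as the only other RNAs listed. The short genes were met by many RNAs, 18 transcripts each in mESC 1FA with their own. The own RNA led, with 83 of 530 tags at Pde4a and 54 of 241 at Pde4c, and Malat1 led the others at Pde4c (17, 10 and 13). Gm22973 was met at both, with 15, 20 and 20 at Pde4a and 9, 17 and 9 at Pde4c. In mOPC 1FA the leading RNA at Pde4a was Malat1 (43, 33 and 26), and Pde4c held only 9 tags, 8 of Ell RNA and 1 of Malat1.

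In the NPM libraries nearly every listed PDE4 contact lay beside the RNA tag. In mOPC NPM 96.0 and 95.9% of Pde4b interactions lay within 1 kb of the RNA tag, against 4.39, 1.4 and 2.41% in mOPC 1FA. For Pde4d the share was 97.8 and 97.5% in mOPC NPM against 6.68, 2.83 and 3.05% in 1FA, and 91.7 and 91.5% in mESC NPM against 2.21, 3.76 and 2.42% in 1FA. The groups did not overlap in any of the 3 comparisons, and the differences were 93.2, 93.4 and 88.8 percentage points (two-sided exact permutation tests, p = 0.2 each, the smallest that 2 against 3 libraries allow; 0.265 after adjustment over 18 comparisons). Nearly all contacts were then within the own gene, 97.2% on average for Pde4b and 100% for Pde4d in mOPC NPM, 94% for Pde4d in mESC NPM. No listed interaction lay beyond 1 Mb in cis. Only pairs above the threshold were listed, and the part of this filter and of depth was not tested. Most transcripts had such short contacts in NPM, with a median share within 1 kb of 92.7% over 2773 transcripts in mOPC NPM and 86.4% over 1258 in mESC NPM.

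The NPM contacts of Pde4b and Pde4d outside their genes lay on other chromosomes, and of the short genes only Pde4a had any outside its span, 1 in mOPC NPM on its own chromosome. Pde4d in mESC NPM had 4.62 and 7.43% of its interactions in trans, and 42 of these 62 were in 1 bin, chr17:39825001-39850000, which holds Gm42418 and Gm26917, loci known for ribosomal RNA sequence, and where 2166 transcripts were listed. Pde4b in mOPC NPM had 2.64 and 3.00% in trans, in the same chromosome 17 bin (22 interactions, 447 transcripts listed), in 2 bins at Malat1 (12 and 13 interactions), 2 at Sfi1 on chromosome 11 (10 and 17), 2 at Plb1 on chromosome 5 (9 each) and 1 at Cad and Atraid (9, with 17 transcripts listed, the fewest), with both libraries summed. Each of these bins had more transcripts listed than 99.9% of the bins of its group. Pde4d in mOPC NPM had no trans contact.

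The listed level of the 2 long genes fell in NPM, and that of Pde4a rose in mOPC. A level counts listed interactions, so the loss of distant bins from the list enters it too. Pde4b was listed in 476 bins in mOPC 1FA and 24 in mOPC NPM. Pde4d was listed in 137 and 23 bins in mOPCs, and in 281 and 35 in mESCs. The part of these bins in the falls was not tested. The test was limma on log2 CPM, scaled by TMM factors and fitted over all transcripts. Pairs were called once per group, so the libraries of a group share 1 filter, which limma does not take into account. In mOPC NPM against mOPC 1FA, 3 of the 3 members tested passed an adjusted p of 0.05, beside 55.9% of all transcripts tested. Pde4d fell by 1.37 (log2, SE 0.0959, adjusted p = 4.97e-05), Pde4b fell by 1.26 (SE 0.130, adjusted p = 0.000354) and Pde4a rose by 1.99 (SE 0.332, adjusted p = 0.00308). With the library totals in place of TMM factors the median of all transcripts moved from 0.32 to 1.12, the share of calls that were higher in NPM from 56.9 to 90.7%, and these values became -0.56, -0.45 and 2.79. Relative to the median of all transcripts under TMM, Pde4d was lower by -1.69, Pde4b by -1.58 and Pde4a higher by 1.67. Pde4b was selected on the mOPC 1FA libraries that are the reference here. The part of this selection in its fall was not tested. At 4.52, 3.80 and 6.50 CPM, the mOPC 1FA libraries alone would not have carried Pde4a past the low-count filter. Pde4a entered the test through mOPC NPM, where it was high, and its rise is a description. Pde4a rested on few interactions (10, 8 and 13 against 50 and 37), and its call was lost without either NPM library (limma adjusted p = 0.0730 and 0.0542).

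In mESC NPM against mESC 1FA, 1 of 3 members tested was called, beside 53.2% of all transcripts. Pde4d fell by 1.2 (SE 0.168, limma adjusted p = 0.000283), which became -0.53 with library totals, under which the median of all transcripts moved from 0.03 to 0.70 and the share of calls that were higher from 46.6 to 81.3%. Pde4a stood at 0.12 (SE 0.291, adjusted p = 0.749) and passed only with library totals (0.78, limma adjusted p = 0.0460), and Pde4c stood at 0.19 (SE 0.399, adjusted p = 0.709). A limma interaction term compared the NPM effect between the lines, with 35.7% of 13593 transcripts called. For Pde4a the NPM effect was higher in mOPC by 1.76 (log2, SE 0.354, adjusted p = 0.00402). This term contains the 1FA contrast of the lines on which the family was chosen, where Pde4a stood at -1.10, and its value is a description. Between the NPM groups alone Pde4a stood at 0.81 (limma adjusted p = 0.0673). For Pde4d the difference was -0.30 (SE 0.16, adjusted p = 0.181). Pde4b was listed at 0 in mESC 1FA and Pde4c in both mOPC groups, so that no such difference is given for them.

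The NPM libraries compared the same 2 cell lines in libraries on which the family had not been chosen. All 4 members passed the low-count filter, Pde4b through mOPC NPM alone (1934 and 1667 against 5 and 2 interactions) and Pde4c through mESC NPM alone (7 and 14 against 0 and 0). Both therefore had to differ, in the direction known from 1FA, and are given as a description. Of the other two, 1 was called, beside 50.3% of all transcripts, of whose calls 54% were higher in mOPC (38.9% with library totals). Pde4d was lower in mOPC NPM by -0.99 (SE 0.142, limma adjusted p = 0.00376), a call that was lost without mOPC NPM replicate 1 (adjusted p = 0.0942) or replicate 2 (0.127). Pde4a stood at 0.81 (SE 0.287, limma adjusted p = 0.0673).

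After actinomycin D no distant contact of Pde4d was listed. Of its 275 and 158 interactions in mESC ActD4, none lay beyond 1 Mb, against 33.9, 33.0 and 34.1% in mESC 1FA (difference -33.7 percentage points, two-sided exact permutation test, p = 0.2, the smallest that 2 against 3 libraries allow; 0.265 adjusted). The longest contacts were 0.773 and 0.679 Mb, 94.2 and 93.7% stayed within the gene, and the share within 1 kb was 12.7 and 14.6%. The remaining contacts fell into 25 bins, all of them among the 281 bins of mESC 1FA and all in every library of ActD4. Contacts outside the gene, 26 in all, lay after it and none before it. The captured part of Pde4d lies toward that side, and the part of this offset was not tested. A median share of 0 beyond 1 Mb was found over the 663 transcripts with enough interactions in ActD4, compared with 0.590% in 1FA. The 0 of Pde4d ranked 161st among them, so that the transcripts ranked above it had such contacts in ActD4, and its share within the own gene ranked 5th. These were the shallowest libraries, in which fewer pairs could pass the threshold of listing. The bins were called once for the libraries of the group together. Neither the share beyond 1 Mb nor presence in every library is therefore an independent value per library. The part of depth was not tested.

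The level of Pde4d fell by 1.28 in ActD4 (log2, SE 0.0940, limma adjusted p = 1.59e-05), where 62% of all transcripts tested were called and their median was -0.28. This level counts listed interactions, and Pde4d was listed in 281 bins in mESC 1FA and 25 in ActD4. The part of these bins in the fall was not tested. Pde4d was the member called. It was 1 of 3 members called. Pde4a stood at -0.66 (SE 0.304, adjusted p = 0.0948) on 4 and 3 interactions, and it passed without the low-count filter (adjusted p = 0.0443), with all 6 groups in 1 limma fit (0.0337) or without ActD4 replicate 2 (0.0312). Pde4c stood at 0.19 (SE 0.457, adjusted p = 0.731) on 4 and 5 interactions. Pde4b was listed at 0 on both sides. Along Pde4d, the part before the mOPC edge held 16.4 and 18.4% of the remaining tags against 25 to 28.1% in mESC 1FA, without overlap.

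**Figure D4:**
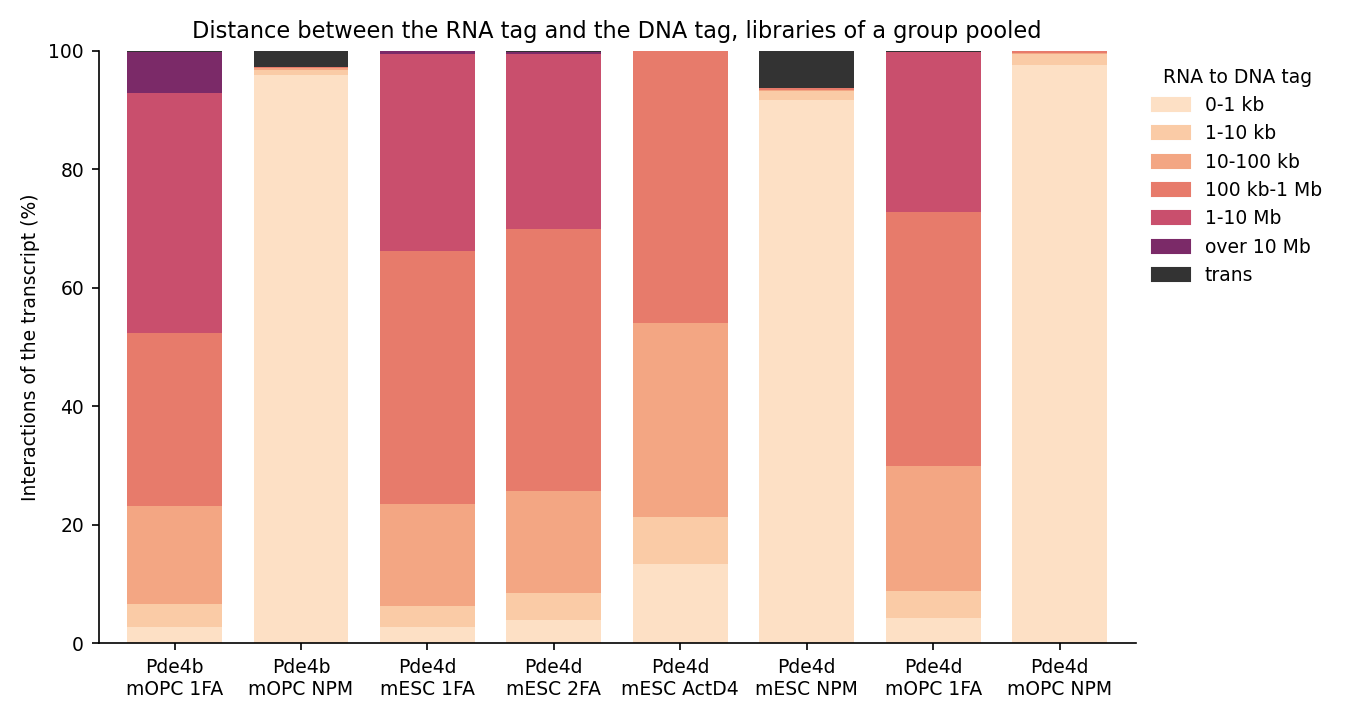
Share of interactions (%) in 7 classes of distance between RNA tag and DNA tag, with the libraries of a group pooled, for Pde4b and Pde4d. Both NPM groups of Pde4d and that of Pde4b lie almost wholly within 1 kb (91.6 to 97.6%), ActD4 has no class beyond 1 Mb, and 7.03% of Pde4b in mOPC 1FA lies over 10 Mb.

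More formaldehyde gave no call for the family. In mESC 2FA against 1FA 0 of the 3 members tested by limma were called, beside 0.0305% of all transcripts, and 1 member, Pde4c, had an unadjusted p under 0.05 (log2 -0.78, SE 0.346, limma adjusted p = 0.405). With the replicate number as a block, which pairs these libraries, 505 in place of 3 transcripts were called and again no member (Pde4d limma adjusted p = 0.121, Pde4c 0.140). Pde4d stood at 0.19 (SE 0.106, limma adjusted p = 0.506) and Pde4a at -0.04 (SE 0.242). The share of Pde4d beyond 1 Mb was 31.2, 31.2 and 28% in 2FA, lower than in every 1FA library (difference -3.51 percentage points, two-sided exact permutation test, p = 0.100, the smallest that 3 against 3 libraries allow; 0.265 adjusted), and with the libraries paired by number p = 0.25 (exact sign-flip permutation test), the smallest that 3 pairs allow. Of 281 bins in 1FA and 265 in 2FA, 229 were shared, 81.5% of the former and 86.4% of the latter. The 39 Pde4b interactions of 2FA fell in 5 bins, all within the gene.

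The rest of the cyclic AMP pathway was read from a list of 62 genes. In mOPC 1FA against mESC 1FA, 44 of 54 list genes tested were called, 25 higher and 19 lower, a share of 81.5% beside 77.9% of all transcripts, with a median log2 difference of 0.29 against -0.20 over all transcripts. With library totals 19 were higher and 24 lower, and the share of higher calls over all transcripts was 32.4 in place of 45.2%. Of the 44 calls, 4 higher and 6 lower ones had no library of the other group at the low-count filter, so that these genes entered the test through the group where they were high and had to differ. Of 12 other phosphodiesterase genes tested, 4 rose and 4 fell (4 and 6 with library totals). Pde7b, another cAMP-specific enzyme, had 2477, 2480 and 2530 interactions in mOPC 1FA and 5, 1 and 2 in mESC 1FA, a gene that entered the test through mOPC 1FA. Pde10a, which breaks down both cAMP and cGMP, had 1877, 2032 and 1674 against 19, 26 and 14 (7.40, SE 0.244).

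Among the adenylyl cyclases, which make cyclic AMP, 4 of 8 rose and 4 fell, and the same counts were found with library totals. Adcy5 had 597, 626 and 576 interactions in mOPC 1FA against 16, 20 and 15 in mESC 1FA (log2 5.94, SE 0.170). Adcy1 had 4, 3 and 0 against 347, 275 and 289, and Adcy3 was listed at 0 against 183, 143 and 126, both entering the test through mESC 1FA. Of the anchoring proteins that place protein kinase A and PDE4 in the cell, 6 of 9 fell and 2 rose (7 and 2 with library totals), with Akap12 at 83, 100 and 128 against 1499, 1154 and 1452 (-2.89, SE 0.181). Of 8 genes of protein kinase A and its inhibitors, 5 rose and 2 fell (3 and 2 with library totals). Over all transcripts 77.9% were called, 3522 higher and 4272 lower. The folds given for Pde10a, Adcy5 and Akap12 passed limma at an adjusted p under 0.05.

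In the NPM libraries 35 of 57 list genes tested differed between the lines, 26 higher and 9 lower in mOPC (61.4% beside 50.3% of all; 19 and 15 with library totals). Of these calls, 10 higher and 2 lower ones entered the test through the group where they were high, among them the next 3 genes. Pde7b was again higher, with 1037 and 1158 interactions against 0, and Gnai1, an inhibitory G protein subunit, had 242 and 189 against 0. Adcy8 had 135 and 93 against 0. Akap12 was lower (126 and 110 against 471 and 476, log2 -2.85, SE 0.192), and Akap8 (-1.04, SE 0.164) and Akap10 (-0.71, SE 0.189) were also lower. The call of Akap10 was lost without mESC NPM replicate 2 or either mOPC NPM library, with values from -0.87 to -0.47 over the 4 left-out libraries.

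Within mOPCs, NPM against 1FA called 39 of 57 list genes, 18 higher and 21 lower (68.4% beside 55.9% of all), a balance that turned to 34 and 4 with library totals. Of the 18 higher calls, 7 entered the test through NPM alone. Pde10a fell by 1.23 (SE 0.183; 733 and 899 against 1877, 2032 and 1674), as did the CREB coactivator gene Crtc3 by 1.35 (SE 0.104) and Atf1 by 1.23 (SE 0.128). With library totals these 3 values became -0.42, -0.54 and -0.42. Akap8 rose by 1.13 (SE 0.204) and Adcy8 by 1.05 (SE 0.239), and both calls were lost without either mOPC NPM library, with lowest values of 0.98 and 0.82. With library totals they stood at 1.93 and 1.86. In mESCs NPM called 34 of 54, 9 higher and 25 lower (63% beside 53.2%), or 20 and 10 with library totals, and 1 higher and 6 lower calls had no library of the other group at the filter. Akap7 fell by 1.2 (SE 0.182), Creb1 by 1.16 (SE 0.196) and Akap10 by 1.09 (SE 0.170), values that became -0.53, -0.49 and -0.42 with library totals, and Akap8 rose by 1.54 (SE 0.170) and Akap9 by 1.27 (SE 0.167), or 2.2 and 1.94 with library totals. ActD4 called 29 of 52, 6 higher and 23 lower (55.8% beside 62%; 12 and 19 with library totals), 10 of the lower ones with no ActD4 library at the low-count filter, with Akap7 lower by -2.48 (SE 0.189), Adcy9 by -2 (SE 0.172) and the beta-arrestin gene Arrb1 by -1.62 (SE 0.2), and Akap1 higher by 0.68 (SE 0.146). In 2FA 0 of 52 were called by limma, and 8 had an unadjusted p under 0.05. These comparisons share control libraries, and each is given on its own.

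The genes around Pde4b and Pde4d were read in the same way, within 1 Mb of each. Of 9 neighbours of Pde4b tested in mOPC 1FA against mESC 1FA, 3 were higher and 5 lower (88.9% called, beside 77.9% of all transcripts). Sgip1, next to Pde4b, went with it: 1276, 1280 and 1247 interactions in mOPC 1FA against 6, 7 and 3. It entered the test through mOPC 1FA, as Dnajc6 and Raver2 did through mESC 1FA, and these 3 calls had to differ. On the other side Dnajc6 was listed at 0 in mOPC 1FA against 1590, 1389 and 1709, and Raver2 at 0 against 179, 156 and 179. Ak4 was lower by -2.22 (SE 0.164), and Slc35d1 (1.69, SE 0.207) and Jak1 (0.78, SE 0.135) were higher, the call of Jak1 being lost with library totals. In mOPC NPM against 1FA, 2 were higher and 4 lower (66.7% called beside 55.9% of all; 5 and 1 with library totals), both higher ones entering through NPM alone, and Sgip1 fell by 1.07 (SE 0.109). In mESC NPM, where 1 was higher and 3 lower (40% called beside 53.2% of all; 5 and 1 with library totals) and the higher one entered through NPM alone, Dnajc6 fell by 1.06 (SE 0.146), Ak4 by 0.98 (SE 0.152) and Raver2 by 0.83 (SE 0.170), and in ActD4 7 of 9 were lower (77.8% called beside 62% of all, of which 2223 were higher and 4126 lower), 2 of them with no ActD4 library at the filter, among them Oma1 (-2.18, SE 0.267), Raver2 (-1.4, SE 0.2) and Mier1 (-0.80, SE 0.149).

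Of 5 neighbours of Pde4d tested, 4 were lower in mOPC 1FA, a share called of 80% beside 77.9% of all, with Depdc1b at 24, 15 and 25 interactions against 436, 408 and 535 (log2 -3.59, SE 0.192) and Ndufaf2 at 43, 47 and 37 against 627, 520 and 669 (-2.98, SE 0.132). In mESC NPM and in ActD4, 1 was higher and 2 lower (60% called, beside 53.2 and 62% of all), which turned to 3 higher and 1 lower in mESC NPM with library totals. Depdc1b and Ndufaf2 were the lower ones, in mESC NPM (-1.27, SE 0.157, and -0.96, SE 0.145) and in ActD4 (-1.17, SE 0.13, and -0.75, SE 0.116). In mESC NPM the calls of Ndufaf2, Ak4 and Raver2 were lost with library totals. Of 59 neighbours of Pde4c tested, 28 were higher and 11 lower in ActD4 (66.1% called beside 62% of all; 33 and 6 with library totals), 4 of each with no library of the other group at the filter, led by Sugp2 (1.36, SE 0.121) and the elongation factor gene Ell (1.32, SE 0.147). Of 40 neighbours of Pde4a tested, 18 were higher and 6 lower (60% called; 19 and 3 with library totals), 1 and 3 of them with no library of the other group at the filter, among them the DNA methyltransferase gene Dnmt1 (0.74, SE 0.125). In mOPC 1FA, 12 of 35 neighbours of Pde4a were higher and 8 lower, 57.1% called beside 77.9% of all, a balance that turned to 7 and 15 with library totals, and 3 of the 8 entered the test through mESC 1FA alone.

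The transcripts most like Pde4b and Pde4d over all 15 libraries were sought among 337 with a mean of at least 1000 interactions in mOPC 1FA. By Pearson correlation of log2 CPM, transcripts among the 5 closest to Pde4b were Negr1 (r = 0.982), Kcnh5 (0.972), Mir99ahg (0.971) and Pcdh9 (0.970), these 4 with group means of 0 to 23.7 interactions in mESCs and 1027 to 3561 in mOPC 1FA. Those among the 5 closest to Pde4d were Wwox (0.966), Ext1 (0.936), Zfp532 (0.935) and Smyd3 (0.932), these 4 higher in mESC 1FA than in mOPC 1FA, as in Wwox with 17543 against 2886 on average. The 15 libraries fall into 6 groups with few libraries each, and the correlations describe this grouping only.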

How the data were processed

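The authors cut RNA and DNA tags from the reads, removed ribosomal RNA and PCR duplicates, aligned both tags to mm10 with BWA 0.7.15-r1140 (CASAVA 1.8 is also named in the submitters' processing notes), assigned RNA tags by strand to GENCODE genes and DNA tags to 25-kb bins, and kept pairs with an adjusted p-value under 0.05 from a one-sided binomial test. The deposited p-value column repeats this adjusted p on every line, and a line is 1 interaction or a further overlap of it. Lines were merged here to distinct interactions and counted per transcript and library. The 32 GEO samples are RNA and DNA entries of 15 libraries, 1 of them resequenced. Replicates were cell batches of different passage, per the study's methods.

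Log2 CPM with TMM factors computed here (prior count 0.5, kept at 10 or more interactions, scaled to the median library, in as many libraries as the smaller group has, and 15 in all) were tested with limma 3.58.1 in R 4.3.3, with Benjamini-Hochberg adjustment over all transcripts; the code was tested on simulated data. No count model was used, since the files have no column of counts. Shares were tested by exact permutation over libraries, only where each library held at least 100 interactions. The listed bins were called once per group, so that the counts and shares of its libraries are not fully independent. Neither limma nor the permutation tests take this into account. Counting intervals are not given because only pairs above the threshold were listed. Same-numbered mESC 2FA and 1FA libraries deviated together (correlations of 0.212, 0.103 and 0.16) and were taken as pairs in an alternative fit.

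The members and the gene lists were chosen with earlier results of these data known. Genes named from the cAMP list and the neighbours were chosen per comparison from the up to 3 with the largest change in each direction among those called, with a mean of at least 100 interactions in the higher group and no overlap of the groups. Results for some of the genes so chosen are not reported here. Annotation and sequences came from GENCODE M21 and RefSeq GRCm38.p6, the assembly of mm10. Alternatives were another scaling, filter, prior count, fit over all groups, pairing and minimum support of a pair, and leaving out each library.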

Additional observations from a re-analysis of the deposited data

Results flagged for a closer look

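The effect of NPM on Pde4a was flagged as different between the cell lines, and is given as a description. The NPM effect was higher in mOPC than in mESC by 1.76 (log2, SE 0.354, limma interaction term, adjusted p = 0.00402), and Pde4a had 50 and 37 interactions in mOPC NPM against 10, 8 and 13 in mOPC 1FA, and 12 and 15 in mESC NPM against 40, 45 and 35 in mESC 1FA. A call of this kind was made for 35.7% of all transcripts tested. The term also contains the 1FA contrast of the lines on which the family was chosen, where Pde4a stood at -1.10. Between the NPM groups alone Pde4a stood at 0.81 and was not called (limma adjusted p = 0.0673). In mOPC NPM against mOPC 1FA, Pde4a entered the test through mOPC NPM alone.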

How the results depend on the processing

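Under the alternatives, 146 fitted values of the members kept their direction and side of the threshold, 5 gained and 4 lost a call and 5 turned. Of shares and distances 172 held and 1 turned, of differences of the NPM effect 24 held and none turned, and of values of listed genes 813 held, 74 lost their call and 4 turned. With library totals, Pde4a in mESC NPM was called (0.78), and the sign turned for Pde4a in 2FA (0.0064), Jak1 (0.015) and Slc35d1 (0.21) in mOPC NPM against 1FA, and Crtc1 in mOPC 1FA against mESC 1FA (-0.095). Without the low-count filter Pde4a was called in ActD4 (-0.69) and between the NPM groups (0.84), and the transcripts called rose to 10283 in ActD4 (from 6349), 2081 in 2FA (from 3), 9246 between the NPM groups (from 5523) and 11692 between the 1FA groups (from 7794), more transcripts being tested. With all 6 groups in 1 fit, Pde4a was called in ActD4 (-0.68), and 842 transcripts in 2FA and 8496 between the NPM groups. With pairs of at least 20 pooled interactions, 227 were called in 2FA, and Smarca4 (-0.18) turned in ActD4. The median distance of Pde4d from the span of its gene was 0 in both lines, so that their difference was 0. The causes were not tested.

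The replicate block raised the calls in 2FA to 505 and changed no call of a member in any comparison. Outside 2FA, same-numbered libraries did not deviate together (correlations of -0.083 to 0.050) and share only a number.

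Leaving out 1 library gave 2835 to 6281 calls in mOPC NPM against 1FA, 4072 to 7317 in ActD4, 0 to 23 in 2FA and 2522 to 4693 between the NPM groups, the lowest without mOPC NPM replicate 1, mESC 1FA replicate 3, mESC 2FA replicate 2 or 3, and mOPC NPM replicate 1, in that order. Pde4a ranged from 1.82 to 2.15 in mOPC NPM, from -0.85 to -0.49 in ActD4 and from -0.18 to 0.12 in 2FA, Pde4d between the NPM groups from -1.04 to -0.91, and Pde4c from -0.099 to 0.55 in mESC NPM and from -0.35 to 0.73 in ActD4.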
